A study of Mus musculus with 16 samples.

Results

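The potassium channel genes described here are the 94 gene symbols of the count table that start with Kcn, out of 24421 symbols in all. In all, 98 symbols start with these letters, and the antisense or opposite-strand names Kcnd3os, Kcnmb4os1, Kcnmb4os2 and Kcnq1ot1 were left out. Membership rests on the symbol and not on the values, though earlier results of these data were known when the members were chosen. They fall into 21 subfamilies by symbol, Kcna to Kcnv. Most encode the pore-forming subunits of potassium channels, but the Kcnab, Kcne, Kcnip, Kcnmb and Kcnrg symbols name accessory or regulatory proteins.

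Potassium channels let potassium ions leave the cell and so set the resting potential of a neuron, end each action potential and limit how often the next one fires. Voltage-gated channels open on depolarisation, inward rectifiers and channels with a pair of pore domains hold the resting potential, and calcium- or sodium-activated channels follow ion entry. In sensory neurons their balance is known for setting excitability, and in the satellite glia around these neurons an inward rectifier clears potassium.

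RNA was sequenced by a polyA-based method from lumbar dorsal root ganglia, which hold the cell bodies of sensory neurons, of C57BL/6 mouse embryos at embryonic day 13.5. KO_alpha3 stands for 4 libraries from embryos without importin alpha3, the product of Kpna4. KO_beta stands for 4 libraries in which the 3′ untranslated region of importin beta1, the product of Kpnb1, was knocked out. WT_alpha3 and WT_beta are 4 wild-type libraries each, labelled with the alpha3 and the beta line. The labels name ganglion tissue and no Cre or other driver, and according to the design text the wild types of both lines served both projects because of a gender effect. Libraries are called by the number in their title, and values per library are always given in the order 42, 50, 75, 81 for KO_alpha3, 398, 402, 406, 411 for KO_beta, 45, 54, 55, 79 for WT_alpha3 and 399, 401, 410, 415 for WT_beta.

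Library totals ran from 19682595 to 26873361 counts. All 15 sensory neuron markers had counts in each group, and their summed level was 5725 to 12310 CPM (counts scaled by library size). Kpna4 had 0.719, 0.982, 0.619 and 1.13 CPM in KO_alpha3, against 69.5 to 81.4 CPM in the wild types. Kpnb1 had 514, 517, 524 and 564 CPM in KO_beta, against 390 to 530.7 CPM in the wild types, and since the deleted part is its 3′ untranslated region, counts over the whole gene do not check that label. Whether each library holds RNA of another embryo is not stated in the labels, and the spread that the p-values rest on may in part be technical. As a measure of library maturity the log2 ratio of 2 globin counts, Hbb-bh1 over Hbb-y, was used. Primitive red cells hold Hbb-bh1 early and mainly Hbb-y later, so a lower ratio stands for later blood. The ratio was -5.10, -6.81, -6.03 and -3.71 in KO_alpha3, -6.06, -6.35, -6.45 and -7.002 in KO_beta, -4.79, -6.93, -6.71 and -4.10 in WT_alpha3 and -5.17, -6.04, -6.89 and -6.63 in WT_beta. KO_alpha3 42 and 81, WT_alpha3 45 and 79 and WT_beta 399 therefore stood apart from the other 11 libraries in this ratio. The same 5 libraries had the highest sums of 12 progenitor and cell cycle genes, at 860.1, 945, 925, 1464 and 882 CPM in that order, against 359 to 636 CPM in the others. Y-linked reads (summed over Ddx3y, Eif2s3y, Kdm5d and Uty) were above 10 CPM in 2 KO_alpha3, 4 KO_beta, 4 WT_alpha3 and 0 WT_beta libraries, and a library above this level is said to hold them. In KO_alpha3 these were 50 and 75, while 42 and 81 had 0.32 and 0.0418 CPM. Since KO_alpha3 42 and 81 also had the higher ratios of their group, sex and ratio cannot be told apart within KO_alpha3. WT_beta 399 also held 4256 CPM of 5 liver genes, where the other 15 libraries held 4.40 to 496.5 CPM.

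The members that form a pore share a short run of codons that the choice by symbol did not use. It encodes the selectivity filter, the narrow stretch in which backbone oxygens take the place of water around a potassium ion. A filter was searched in frame in the coding sequences with patterns of 5 codons in a row: ACN, TCN or AGN first, then NTN, GGN, TAN or TTN, and GGN. In these, ACN is a threonine codon, TCN and AGN take in those of serine, GGN is a glycine codon, TAN takes in the tyrosine codons, and TTN takes in those of phenylalanine and leucine. Only the coding strand was read, and the patterns exclude one another at a given position. Of the 94 members, 75 (79.8%) held a match, against 168 of 21619 other protein-coding genes (0.777%). All 30 voltage-gated pore genes, all 10 silent voltage-gated genes, all 15 inward rectifier genes and all 8 calcium- or sodium-activated genes had one. Among the 14 genes for channels with a pair of pore domains 12 had one, the exceptions being Kcnk1 and Kcnk7, and among the 17 accessory genes 0 had one. The following lines give 27 bases of the coding strand around the filter for members whose levels are described further on, from GENCODE M21 transcripts with GRCm38 (mm10) coordinates. Capitals mark the codons for glycine, tyrosine or phenylalanine, and glycine.
Kcna2, chr3:107105218-107105244, plus strand: atgacaactgtaGGCTATGGAgacatg
Kcna6, chr6:126738641-126738667, minus strand: atgaccacggtaGGTTATGGGgacatg
Kcnh2, chr5:24325549-24325575, minus strand: ctcaccagcgtgGGCTTTGGCaatgtc
Kcnj10, chr1:172369296-172369322, plus strand: cagaccaccatcGGCTATGGCttccgc
Kcnk4, chr19:6927625-6927651, minus strand: ctcaccactgtaGGCTTTGGCgattat
Kcnn1, chr8:70850651-70850677, minus strand: ttcttgtccattGGCTATGGAgacatg
Kcnt1, chr2:25894361-25894387, plus strand: ttctcaactgtgGGCTTCGGTgatgtg
Kcna2, Kcna6, Kcnj10 and Kcnn1 carry a tyrosine codon in the middle. Kcnh2, the second of the filters of Kcnk4 and Kcnt1 carry a phenylalanine codon there.

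Of the 94 members, 51 had at least 1 CPM in every library and 18 reached 1 CPM in no library. The edgeR filter on low counts (filterByExpr, minimum count 10) kept 76 for testing. The 18 members that were not tested were Kcna7, Kcna10, Kcne1, Kcne2, Kcng3, Kcng4, Kcnj1, Kcnj4, Kcnj5, Kcnj6, Kcnj9, Kcnj13, Kcnj16, Kcnk7, Kcnk15, Kcnk16, Kcnmb3 and Kcnv2. Kcnj1 had 0 counts in all 16 libraries, and the highest value among the others was 1.33 CPM, for Kcnj5. Per kb of exon, the highest member was Kcnab2, an accessory subunit of Kv1 channels, at 48.3 ± 16.4 CPM per kb (SD, n = 16 libraries). The next were Kcna6, which encodes the Kv1.6 pore, at 43.9 ± 11.9, Kcne1l, an accessory subunit with a single membrane span, at 34.8 ± 13.4, and Kcnj12, which encodes the inward rectifier Kir2.2, at 34.2 ± 5.43 CPM per kb. Each of these 4 means lay within 1 SD of the next. Kcnh6 and Kcnh2, of the ether-a-go-go related channels, had 26.8 ± 7.004 and 18.1 ± 4.16 CPM per kb. Among accessory genes of the large-conductance calcium-activated channel, Kcnmb2 had 24.7 ± 8.67 and Kcnmb4 20.2 ± 3.44 CPM per kb, while its pore gene Kcnma1 had 1.10 ± 0.277 CPM per kb.

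**Figure D1:**
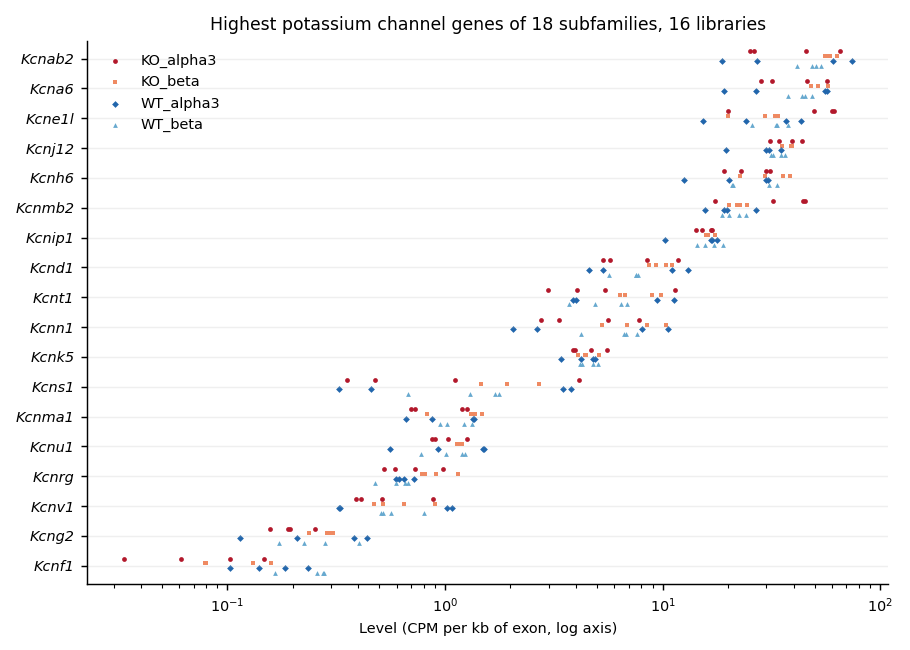
Levels of the highest member per kb of exon in 18 subfamilies (log axis), with 1 point for each of the 16 libraries and groups set apart by colour and marker. Kcnab2, Kcna6, Kcne1l and Kcnj12 lead, Kcnf1 is lowest, and the points of Kcns1 spread most widely for their mean.

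Further subfamilies had lower leading members. Kcnip1, a calcium-binding subunit of Kv4 channels, had 16.0 ± 1.95 CPM per kb, and Kcnd1 (Kv4.1) 8.33 ± 2.62 CPM per kb. The sodium-activated Kcnt1 had 6.64 ± 2.78, the small-conductance calcium-activated Kcnn1 6.19 ± 2.65 and Kcnk5, the highest gene with a pair of pore domains, 4.48 ± 0.544 CPM per kb. The silent voltage-gated genes, whose products form no channel alone and modify Kv2 channels, were lower still. Kcns1 had 1.70 ± 1.24, Kcnv1 0.618 ± 0.244, Kcng2 0.259 ± 0.0914 and Kcnf1 0.152 ± 0.0768 CPM per kb. Kcnu1, a pore gene known from sperm, had 1.09 ± 0.249 and Kcnrg, a regulator of voltage-gated channels, 0.716 ± 0.176 CPM per kb. In this mixed tissue fewer cells of a type and less RNA per cell cannot be told apart. Summed over the 94 members, the level was 1949 ± 445 CPM in KO_alpha3, 2292 ± 211 in KO_beta, 1950 ± 710 in WT_alpha3 and 1993 ± 201 in WT_beta (SD, n = 4 each).

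Against the globin ratio, potassium channel transcripts were mostly higher in libraries of lower ratio. A slope per log2 unit of the ratio was fitted with the 4 groups as a factor, so that it rests on differences between libraries of the same group, and a negative slope means a higher level at a lower ratio. Of the 76 members tested, 41 (53.9%) had a negative and 2 (2.63%) a positive slope at an adjusted p under 0.05 (edgeR quasi-likelihood test, Benjamini-Hochberg adjustment over all genes). Of all 15639 genes tested, 46.7% were called, 26.1% with a negative and 20.5% with a positive slope. The median slope was -0.28 over the members and -0.0050 over all genes. Per class, the negative calls were 16 of 28 voltage-gated pore genes, 5 of 7 silent genes, 7 of 14 accessory genes, 3 of 8 inward rectifiers, 5 of 11 genes with a pair of pore domains and 5 of 8 calcium- or sodium-activated genes. Both positive calls were accessory genes. Among the members with filter codons 34 of 61 had a negative and 0 a positive call, and among those without them 7 of 15 had a negative and 2 a positive call.

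**Figure D2:**
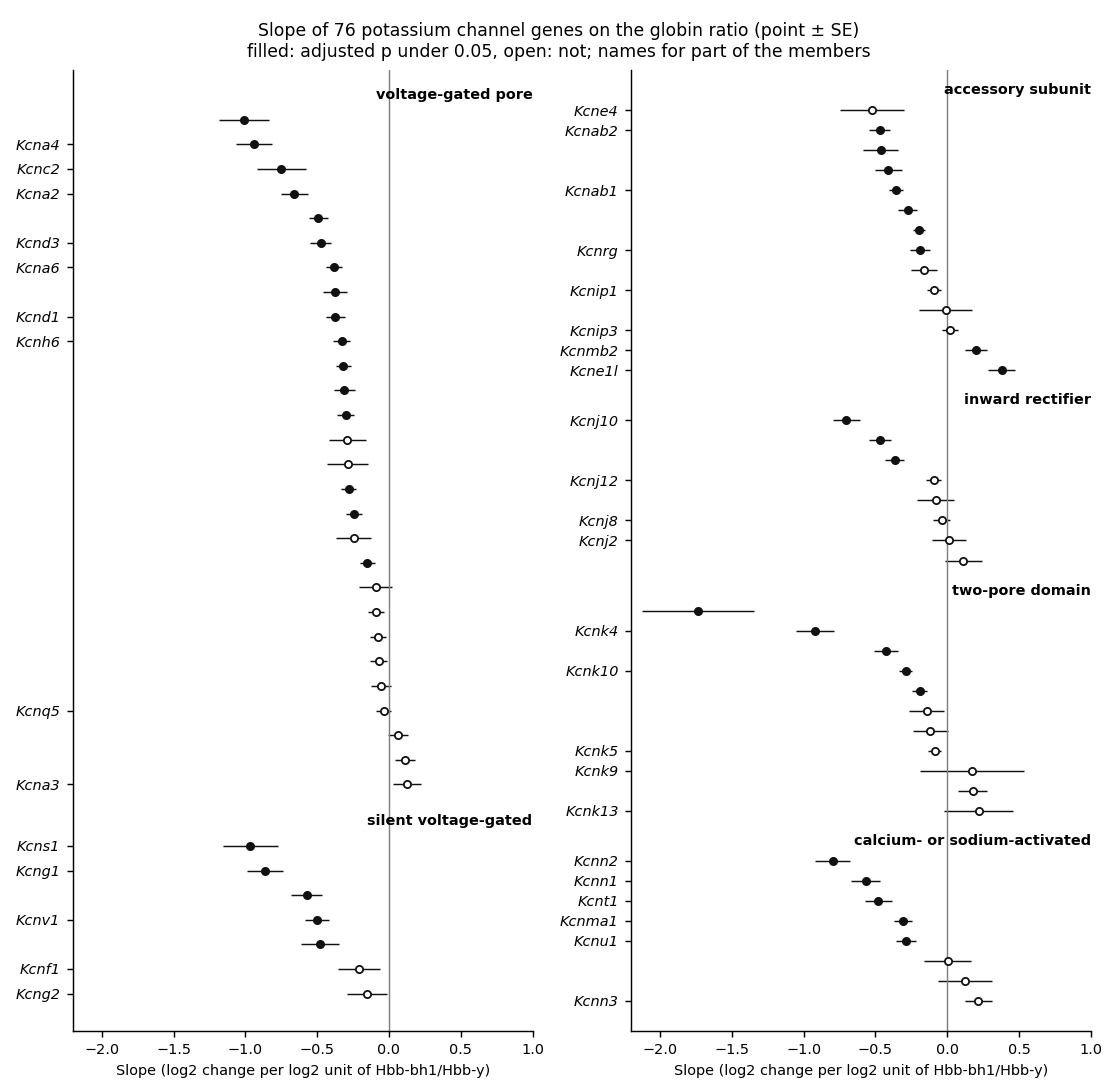
Slopes on log2(Hbb-bh1/Hbb-y) of the 76 members tested, grouped by class, with bars for ± 1 SE, names for part of the members and filled points for an adjusted p under 0.05. Most filled points lie left of 0, and only Kcnmb2 and Kcne1l have filled points right of it.

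Among the Kv1 genes, Kcna2, which encodes the Kv1.2 subunit of axons, had 44.6, 158, 97.5 and 39.2 CPM in KO_alpha3 and 136, 107, 105 and 162 CPM in KO_beta. It had 45.4, 149, 169 and 31.9 CPM in WT_alpha3 and 101, 70.3, 121 and 111 CPM in WT_beta. The values of KO_alpha3 42 and 81 and of WT_alpha3 45 and 79 were the lowest 4 of the 16, and all groups overlapped. The slope was -0.66 ± 0.094 (SE, adjusted p 0.000114), which equals 1.58 times the level per unit of lower ratio. Kcna4, which encodes the rapidly inactivating Kv1.4, had 2.76, 11.6, 9.59 and 1.17 CPM in KO_alpha3 and 9.08, 7.78, 10.5 and 12.5 CPM in KO_beta. It had 4.48, 13.04, 11.4 and 1.03 CPM in WT_alpha3 and 6.99, 8.66, 10.8 and 8.35 CPM in WT_beta. Here too the same 4 libraries were lowest, WT_alpha3 79 and KO_alpha3 81 with about 1 CPM, and the groups overlapped. Its slope was -0.94 ± 0.12 (adjusted p 7.34e-05), or 1.92 times per unit.

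Kcna6 had 187, 331, 268 and 165 CPM in KO_alpha3 and 302, 279, 282 and 336 CPM in KO_beta. It had 156, 333, 327 and 112 CPM in WT_alpha3 and 264, 221, 285 and 255 CPM in WT_beta. The lowest 4 were the same as for Kcna2, and the slope was -0.38 ± 0.057 (adjusted p 0.000139). Its exons overlap Gm26673 on the other strand, and with the strand setting of the counting not given in the sources used here, reads of such pairs cannot be told apart. In all 22 members share exon bases with a gene on the other strand, among them Kcnab1, Kcnd3, Kcnq5, Kcnn2 and Kcnma1. Of the 3 accessory Kcnab genes of these channels, Kcnab1 and Kcnab2 had a negative call, and Kcnab3 had a slope of -0.16 ± 0.092 that did not pass (adjusted p 0.16). Kcnab2 had 104, 271, 189 and 109 CPM in KO_alpha3 and 235, 229.6, 243 and 263 CPM in KO_beta. It had 112, 252, 306 and 77.6 CPM in WT_alpha3 and 202, 171, 209 and 222 CPM in WT_beta. KO_alpha3 42 and 81 and WT_alpha3 45 and 79 were again lowest. The slope of Kcnab2 was -0.47 ± 0.074 (adjusted p 0.000198) and that of Kcnab1, at 18.5 to 52.2 CPM over the 16 libraries, -0.36 ± 0.049 (adjusted p 8.76e-05).

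Kv1 genes that lie next to these had other slopes, and they are named here after their values were seen. Kcna6 (chr6:126708328-126740834) lies in 1 cluster with Kcna1 (chr6:126636463-126645801) and Kcna5 (chr6:126532551-126535555). Kcna1, which encodes Kv1.1, had 47.8, 73.4, 53.1 and 74.4 CPM in KO_alpha3 and 54.7, 60.8, 56.5 and 66.7 CPM in KO_beta. It had 42.1, 72.2, 61.3 and 58.7 CPM in WT_alpha3 and 52.2, 44.0, 58.1 and 59.4 CPM in WT_beta. KO_alpha3 81, the library of highest ratio, held the highest value, and WT_alpha3 45 the lowest. The slope was -0.073 ± 0.060 for Kcna1 and 0.11 ± 0.072 for Kcna5, and neither passed the test (adjusted p 0.334 and 0.218). Kcna2 (chr3:107090883-107115005) lies beside Kcna3 (chr3:107036162-107038129), a Kv1 gene known from lymphocytes, whose slope was 0.12 ± 0.10 (adjusted p 0.31). Likewise Kcnmb1 (chr11:33962955-33973641), an accessory gene of the large-conductance channel, lies within the span of Kcnip1 (chr11:33629339-33993348), with a slope of -0.46 ± 0.12 (adjusted p 0.00572), while that of Kcnip1 was -0.091 ± 0.049 (adjusted p 0.143). The differences between neighbours were not tested.

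Kcng1, a silent subunit that joins Kv2 channels, was a low gene, with 0.2398, 1.43, 0.575 and 0.292 CPM in KO_alpha3 and 0.640, 0.677, 0.667 and 0.986 CPM in KO_beta. It had 0.280, 1.496, 1.55 and 0.246 CPM in WT_alpha3 and 0.378, 0.784, 0.675 and 1.02 CPM in WT_beta. KO_alpha3 50 and WT_alpha3 54 and 55 lay above the other 13 libraries, and the slope was -0.87 ± 0.12 (adjusted p 0.000119). Kcnd3 (Kv4.3), which carries A-type current, ran from 12.4 to 51.4 CPM with a slope of -0.48 ± 0.072 (adjusted p 0.000168).

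Kcnj10, which encodes Kir4.1, the inward rectifier known from satellite glia, had 4.48, 20.3, 11.6 and 2.97 CPM in KO_alpha3 and 13.3, 12.4, 15.9 and 19.2 CPM in KO_beta. It had 6.73, 19.1, 21.9 and 5.61 CPM in WT_alpha3 and 11.9, 11.7, 12.4 and 13.6 CPM in WT_beta. KO_alpha3 81 and 42 and WT_alpha3 79 and 45 were lowest, and all other libraries lay above 11 CPM. The slope of -0.70 ± 0.092 had the lowest adjusted p among the members (6.65e-05). The highest inward rectifier, Kcnj12, had 108, 85.7, 121 and 94.5 CPM in KO_alpha3 and 107, 108, 97.1 and 97.0 CPM in KO_beta. It had 84.8, 96.4, 82.3 and 53.7 CPM in WT_alpha3 and 88.4, 86.2, 100.1 and 96.6 CPM in WT_beta. WT_alpha3 79 alone stood below 80 CPM, and the slope of -0.094 ± 0.052 did not pass the test (adjusted p 0.149). Of 8 glial markers 4 had a negative and 0 a positive call, where 26.1% of all genes had a negative and 20.5% a positive one.

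Among the genes with a pair of pore domains, Kcnk4 and Kcnk10 encode the mechanically and thermally gated leak channels TRAAK and TREK-2. Kcnk4 had 0.959, 4.29, 2.03 and 0.668 CPM in KO_alpha3 and 2.19, 2.33, 2.05 and 3.27 CPM in KO_beta. It had 1.201, 3.37, 4.59 and 0.246 CPM in WT_alpha3 and 1.32, 0.933, 2.06 and 2.47 CPM in WT_beta. The highest values were those of KO_alpha3 50 and WT_alpha3 54 and 55, libraries of low ratio, and the lowest that of WT_alpha3 79. The slope was -0.92 ± 0.13 (adjusted p 0.000119), while that of Kcnk10, at 6.84 to 16.7 CPM, was -0.29 ± 0.045 (adjusted p 0.000202). Kcnk18, a leak channel known from sensory neurons and named after its values were seen, had 0 counts in KO_alpha3 42 and 81 and in WT_alpha3 79 and at most 3.04 CPM, in WT_alpha3 55. Kcnn2, which encodes a small-conductance calcium-activated channel, had 0.959, 5.80, 2.39 and 0.877 CPM in KO_alpha3 and 3.20, 2.79, 3.38 and 4.46 CPM in KO_beta. It had 2.36, 5.002, 8.50 and 0.984 CPM in WT_alpha3 and 2.83, 2.99, 3.21 and 4.42 CPM in WT_beta. KO_alpha3 42 and 81 and WT_alpha3 79 stayed below 1 CPM, and the slope was -0.80 ± 0.12 (adjusted p 0.000172).

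Of 14 members with a positive slope, 2 passed the test, both accessory genes. Kcne1l had 94.8, 30.8, 76.2 and 92.2 CPM in KO_alpha3 and 50.7, 52.1, 45.8 and 30.7 CPM in KO_beta. It had 66.6, 37.3, 23.6 and 57.2 CPM in WT_alpha3 and 51.7, 58.1, 51.5 and 39.8 CPM in WT_beta. KO_alpha3 42, 81 and 75 were highest and WT_alpha3 55 lowest, and the slope was 0.38 ± 0.093 (adjusted p 0.0042). Kcnmb2, which gives large-conductance calcium-activated channels fast inactivation, had 141, 54.5, 100.4 and 138 CPM in KO_alpha3 and 69.1, 76.4, 70.6 and 63.4 CPM in KO_beta. It had 83.9, 60.2, 49.1 and 62.1 CPM in WT_alpha3 and 58.4, 70.5, 75.9 and 62.9 CPM in WT_beta. The same 3 KO_alpha3 libraries were highest, and the other 13 libraries lay below 85 CPM. The slope was 0.20 ± 0.077 (adjusted p 0.0468), and it did not pass with a factor for Y-linked reads (0.10 ± 0.08, adjusted p 0.328) or in the wild types alone (0.080 ± 0.084, adjusted p 0.484). With groups in the fit, that factor rests on KO_alpha3 42 and 81 against 50 and 75, which differ in the ratio too.

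**Figure D3:**
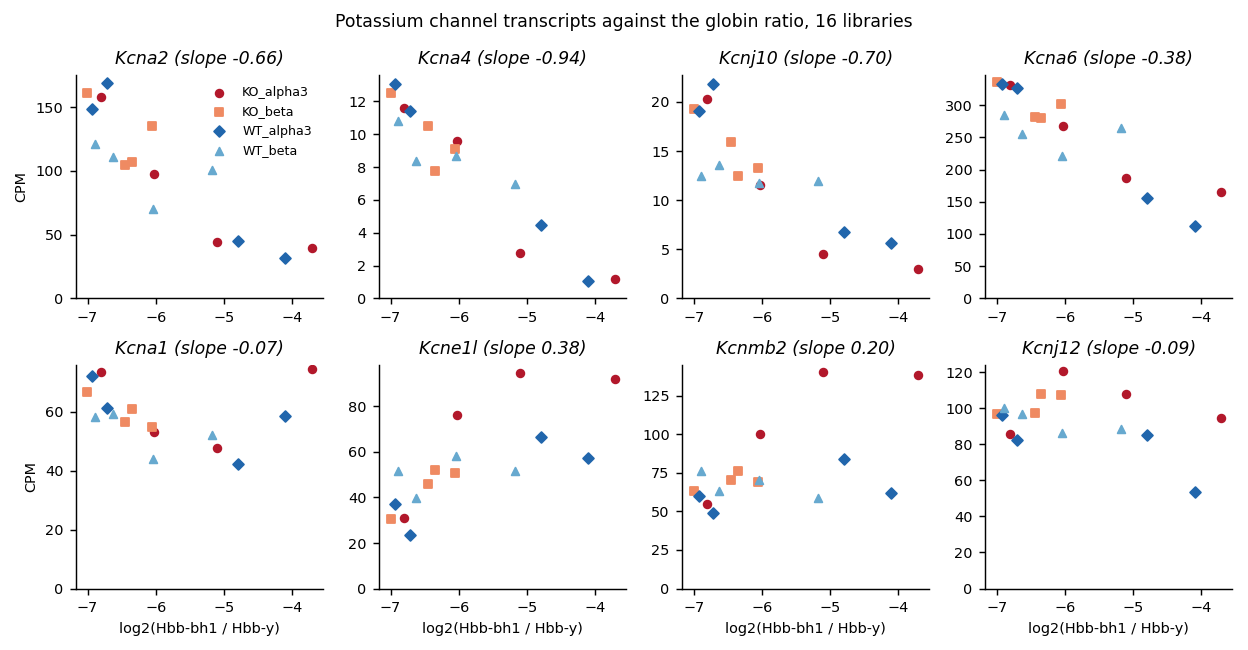
CPM of 8 members against log2(Hbb-bh1/Hbb-y), with 1 point per library and groups by colour and marker. For Kcna2, Kcna4, Kcnj10 and Kcna6 the 4 points of highest ratio, KO_alpha3 42 and 81 and WT_alpha3 45 and 79, lie lowest, whereas Kcne1l runs the other way and Kcna1 and Kcnj12 have no slope that passed the test.

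The number of calls depended on which libraries were kept. Of the 41 members with a negative call, 23 (56.1%) had KO_alpha3 42 and 81 and WT_alpha3 45 and 79 as their lowest 4 libraries, against 40.3% of all 4086 genes with a negative call. In the alpha3 line alone 38 of 74 members tested had a negative and 1 a positive call, where 43.6% of all genes were called and 24.2% with a negative slope. In the wild types alone 36 of 74 had a negative and 2 a positive call, where 33.1% of all genes were called and 18.1% with a negative slope. In the beta line alone 1 member had each, Kcns3, a silent subunit, at -0.87 ± 0.19, and Kcnn4, an intermediate-conductance channel known from red cells, at 0.95 ± 0.22. Of all genes 4.5% were called in that line, 0.481% with a negative slope. Without KO_alpha3 42 and 81 and WT_alpha3 45 and 79, 0 of 78 members passed by edgeR, with 14 at an unadjusted p under 0.05. Of all genes 5.25% were called there, 0.792% with a negative slope. Both subsets keep a narrower range of the ratio, -7.002 to -5.17. In them 38 and 41 of the 43 members called kept the sign of their slope, with medians over the members tested of -0.11 and -0.14.

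**Figure D4:**
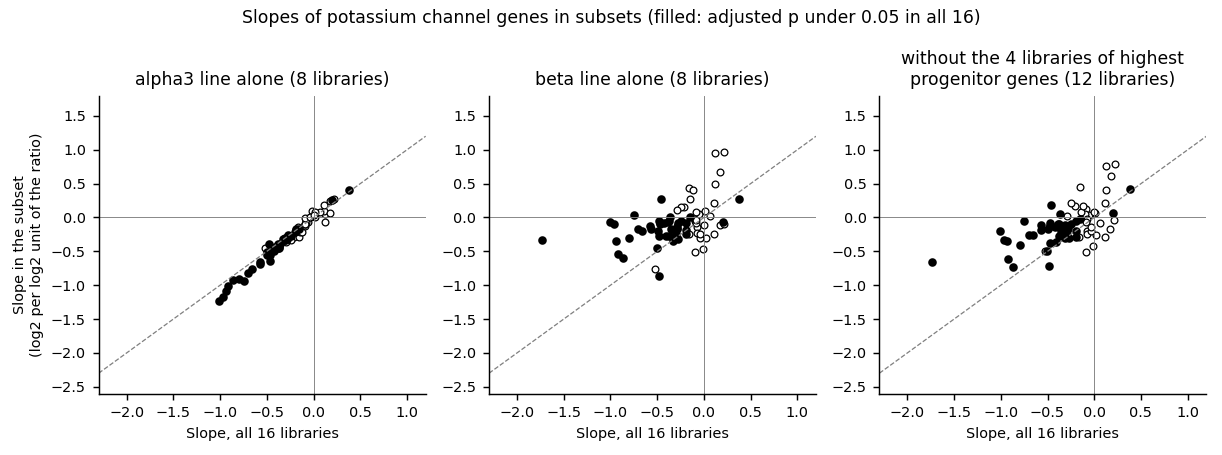
Slope of each member in a subset of the libraries (vertical) against its slope in all 16 (horizontal), with the dashed line at equality and filled points for members with an adjusted p under 0.05 in all 16. Points follow the line in the alpha3 line alone and lie closer to 0 in the beta line alone and without KO_alpha3 42 and 81 and WT_alpha3 45 and 79. The libraries left out in the last panel are those of highest globin ratio. Its title names highest progenitor genes, but WT_beta 399, which was kept, had 882 CPM of these and KO_alpha3 42 had 860.1 CPM.

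Some markers of other cells moved with the ratio as well. All 12 progenitor and cell cycle genes had a positive slope that passed the test, with a median of 0.59. Of 15 sensory neuron markers 8 had a negative and 3 a positive call, and of 10 spinal cord markers tested 4 had a positive call. Among all genes tested 26.1% had a negative and 20.5% a positive call. Of 7 sympathetic markers 1 had a positive and 1 a negative call, and of 8 endothelial and pericyte markers 2 had a negative call. Positive calls were made for 2 of 4 erythroid, 1 of 6 fibroblast and 1 of 4 cartilage markers tested. Skeletal muscle, macrophage, epidermis and liver markers had 0 calls each. With the mean of the sensory neuron list as a covariate, 1 member, Kcns3, kept a call at -1.17 ± 0.17, where 1.47% of all genes were called, and 40 of 43 slopes kept their sign. With summed spinal cord, muscle and sympathetic markers as covariates 34 members were called, where 22.9% of all genes were. The part of neuron number, neuron age and other tissue in the slopes was not tested.

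Genes whose products bind or regulate potassium channels but carry other symbols were also mostly higher at a lower ratio. Of 35 such genes 32 were tested, and 23 (71.9%) had a negative and 2 (6.25%) a positive slope that passed the test. Among all genes tested these shares were 26.1% and 20.5%. Dpp6, an auxiliary subunit of Kv4 channels, had a slope of -0.71 ± 0.092 (adjusted p 6.18e-05). The contactin-associated Cntnap1, which organises paranodes, had -0.54 ± 0.082 (adjusted p 0.000166) and Adam22, a receptor that binds Lgi proteins near Kv1 channels, -0.29 ± 0.044 (adjusted p 0.000178). The positive calls were Lgi4, a glial ligand, at 0.29 ± 0.072 (adjusted p 0.00436) and Dlg3, a scaffold protein, at 0.14 ± 0.047 (adjusted p 0.0218). In none of the comparisons between groups below was 1 of these genes called.

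Loss of importin alpha3 was compared with the 8 wild types, and no potassium channel gene passed the test. Calls were made for 0 of 76 members, and for 0.00639% of all 15641 genes, Kpna4 alone, in the edgeR quasi-likelihood fit with Benjamini-Hochberg adjustment. At an unadjusted p under 0.05 there were 12 members, where 10.8% of all genes were under it. Of the 76 members 24 had a positive difference, as had 7594 of all 15641 genes. The median over the members was -0.12 on the log2 scale, against -0.0059 over all genes. All 8 calcium- or sodium-activated and all 7 silent members tested had a negative difference, as had 10 of 11 genes with a pair of pore domains, and all 3 Kcne genes tested had a positive one. With the globin ratio as a covariate the first of these classes ran from -0.85 (Kcnn4) to 0.10 (Kcnt1). The silent members then ran from -1.17 (Kcnf1) to 0.075 (Kcns1). Genes with a pair of pore domains ran from -1.95 (Kcnk13) to 0.33 (Kcnk4). The median over the members was 0.034 with the globin ratio as a covariate and 0.0051 without KO_alpha3 42 and 81 and WT_alpha3 45 and 79. The median was -0.42 without WT_alpha3 45 and 79 and WT_beta 399 and 401. In no member did the 4 KO_alpha3 libraries all lie above or all below the 8 wild types, as they did in 0.614% of all genes. With DESeq2 2 members and 0.818% of all genes were called, Kcnmb2 (0.74, adjusted p 0.0462) and Kcnj2 (-0.95, adjusted p 0.0499).

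The 5 members of lowest p had differences of both signs. Kcnmb2, with 141, 54.5, 100.4 and 138 CPM in KO_alpha3, had a lowest of 49.1, a median of 62.5 and a highest of 83.9 CPM in the 8 wild types. KO_alpha3 50, the library of lowest ratio in its group, lay within the wild-type range and the other 3 above it. The log2 difference was 0.73 ± 0.19 (SE, adjusted p 0.33). It was 0.97 ± 0.14 without KO_alpha3 50 (adjusted p 0.0199) and 0.59 ± 0.17 with the ratio as a covariate (adjusted p 0.207). Leaving out KO_alpha3 50, the lowest library of its group here, had to raise the difference. Of 16 fits with 1 library left out, only this fit called a member. Kcnq5, which encodes the M-current subunit Kv7.5, had 18.1, 13.5, 17.6 and 16.4 CPM in KO_alpha3, against a lowest of 10.3, a median of 12.9 and a highest of 14.9 CPM in the wild types. KO_alpha3 50 again overlapped them, and the difference was 0.36 ± 0.12 (adjusted p 0.339).

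Kcnj2, which encodes the inward rectifier Kir2.1, had 1.24, 2.19, 1.68 and 0.919 CPM in KO_alpha3, against a lowest of 1.87, a median of 2.71 and a highest of 4.92 CPM in the wild types. The difference was -0.95 ± 0.26 (adjusted p 0.33), with KO_alpha3 50 inside the wild-type range and the other 3 below it. Kcnk13, a leak channel known from microglia, had 0.200, 0.357, 0.133 and 0.0418 CPM in KO_alpha3, against a lowest of 0.177, a median of 0.691 and a highest of 1.38 CPM in the wild types. The difference of -1.92 ± 0.57 (adjusted p 0.33) rests on few reads, and the ranges overlap. Kcnf1, a silent subunit, had 0.1598, 0.491, 0.707 and 0.292 CPM in KO_alpha3, against a lowest of 0.492, a median of 1.00 and a highest of 1.33 CPM in the wild types. Its values overlap as well, with a difference of -1.25 ± 0.38 (adjusted p 0.33). No marker of another tissue passed the test in this comparison. All 12 skeletal muscle, all 7 sympathetic, all 6 macrophage, all 5 liver and all 10 spinal cord markers tested had a negative difference, with medians of -1.57, -2.91, -0.47, -3.11 and -3.19. So had all 5 epidermis, all 6 fibroblast and all 6 erythroid markers tested, with medians of -2.13, -0.36 and -0.91. An unadjusted p under 0.05 (edgeR) held for 12 muscle, 2 sympathetic, 5 macrophage, 4 liver and 8 spinal cord markers. It also held for 5 epidermis, 2 fibroblast and 0 erythroid markers, and for 10.8% of all genes. Of the cartilage markers 3 of 4 had a positive difference (median 0.71), of the glial markers 6 of 8 (median 0.20) and of the endothelial and pericyte markers 4 of 8 (median -0.044). Their part in the differences of Kcnj2, Kcnk13 and Kcnf1 was not tested.

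For loss of the importin beta1 3′ untranslated region no potassium channel gene passed the test either. Calls were made for 0 of 76 members and for 0% of all genes in the same edgeR fit with Benjamini-Hochberg adjustment. At an unadjusted p under 0.05 there were 5 members, where 2.23% of all genes were under it, and DESeq2 called 0 members. Of the 76 members 50 had a positive difference, as had 7692 of all 15641 genes. The median over the members was 0.10, against -0.0026 over all genes. The median over the members was -0.028 with the globin ratio as a covariate, -0.095 without WT_alpha3 45 and 79 and WT_beta 399 and 401, and -0.022 without KO_alpha3 42 and 81 and WT_alpha3 45 and 79. All 12 progenitor and cell cycle genes had a negative difference (median -0.68) and 12 of 15 sensory neuron markers a positive one (median 0.18), with 0 calls each. Their part in the differences of the members was not tested. This comparison shares its wild types with that of KO_alpha3. Kcnrg had 1.43, 1.48, 2.10 and 1.66 CPM in KO_beta, against a lowest of 0.868, a median of 1.15 and a highest of 1.31 CPM in the wild types. Its 4 KO_beta libraries all lay above the 8 wild types, which held for 1 of 76 members and, in either direction, for 0.134% of all genes. The log2 difference was 0.55 ± 0.18 (unadjusted p 0.0073, adjusted p 0.932). All 4 KO_beta libraries held Y-linked reads. Between WT_alpha3, where all libraries held them, and WT_beta, where none did by the same threshold, Kcnrg differed by 0.10 ± 0.22 (adjusted p 1), and its slope on the globin ratio was -0.19 ± 0.071 (adjusted p 0.0377). Line and Y-linked reads differ together between these wild types, so sex and line cannot be told apart there. With a factor for these reads the difference in KO_beta was 0.41 ± 0.19 (adjusted p 1). Since all KO_beta libraries held such reads, the part of sex in the Kcnrg difference cannot be told apart. Kcnn3, which encodes a small-conductance calcium-activated channel, had 1.81, 2.03, 1.62 and 1.42 CPM in KO_beta, against a lowest of 1.93, a median of 2.63 and a highest of 4.82 CPM in the wild types. The values overlap only at WT_beta 399, WT_alpha3 79 and 45 were highest, and the difference was -0.76 ± 0.25 (adjusted p 0.932).

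Kcnj2 had 2.03, 1.82, 2.10 and 1.498 CPM in KO_beta, and the difference was -0.65 ± 0.26 (adjusted p 0.932). Kcnf1 had 0.377, 0.761, 0.381 and 0.631 CPM in KO_beta, with a difference of -0.86 ± 0.36 (adjusted p 0.932). Both overlapped the wild-type values given above. Kcnk9, which encodes the acid-sensitive leak channel TASK-3, had 0.942, 0.508, 0.238 and 1.22 CPM in KO_beta, against a lowest of 0.516, a median of 1.54 and a highest of 8.33 CPM in the wild types. The highest wild-type values, 8.33 and 4.93 CPM, were those of WT_alpha3 45 and WT_beta 401, the wild types with the highest sums of 7 sympathetic markers (591 and 422 CPM). The difference was -1.81 ± 0.75 (adjusted p 0.932), and the part of sympathetic tissue in it was not tested. Kcnk9 had 0.440, 1.29, 0.840 and 0.460 CPM in KO_alpha3.

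**Figure D5:**
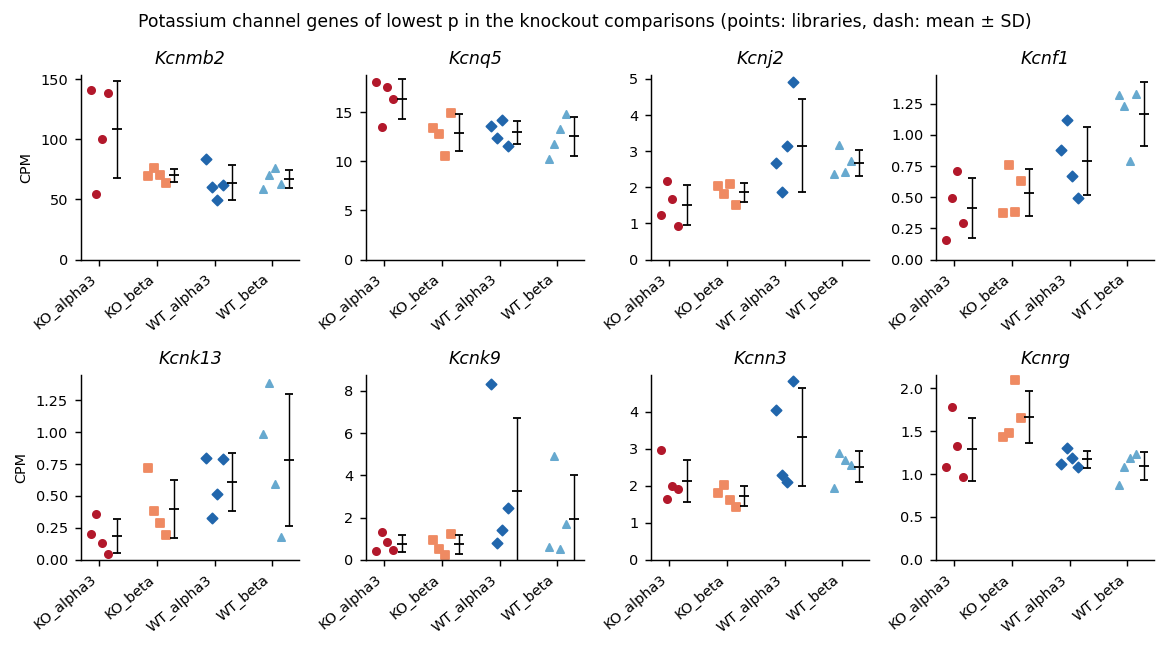
CPM in each library of the 8 members named for the knockout comparisons, with the mean and ± 1 SD (n = 4) beside each group and the lower bar of Kcnk9 cut off at 0. Kcnmb2 is higher in 3 of 4 KO_alpha3 libraries, and Kcnrg is higher in all 4 KO_beta libraries than in the wild types.

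The knockouts were also set against each other, each against the wild types of its own line, so that no controls are shared. The difference of the effects passed in 0 of 76 members by edgeR (0.00639% of all genes) and in 0 by DESeq2, and 0 members had an unadjusted p under 0.05, where 1.22% of all genes did. Kcnmb2 had the lowest p, with a difference of 0.70 ± 0.33 (unadjusted p 0.0505, adjusted p 0.996), and its mean was 108 ± 40.4 CPM in KO_alpha3, 69.9 ± 5.31 in KO_beta, 63.8 ± 14.6 in WT_alpha3 and 66.9 ± 7.82 in WT_beta (SD, n = 4 each). The next were Kcnip3 at 0.41 ± 0.21, Kcna3 at -0.69 ± 0.37, Kcne1l at 0.83 ± 0.48 and Kcnc2, a Kv3 gene, at -1.55 ± 0.89 (adjusted p 0.996 each). With a factor for Y-linked reads 4 of these 5 turned sign, Kcnmb2 to -0.63, Kcnip3 to -0.032, Kcne1l to -0.43 and Kcnc2 to 1.31. Only KO_alpha3 holds libraries with and without such reads, so this factor rests on KO_alpha3 42 and 81 against 50 and 75, which differ in the globin ratio too. All KO_beta and 0 WT_beta libraries were above 10 CPM in such reads, so sex and genotype cannot be told apart within the beta line.

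Between the wild types of the lines, WT_alpha3 minus WT_beta, 0 of 76 members passed by edgeR with Benjamini-Hochberg adjustment (0.0192% of all genes, 0.0128% lower in WT_alpha3) and 0 by DESeq2. Only Kcnip3 had an unadjusted p under 0.05, against 5.27% of all genes. Kcnip3, which encodes a calcium-binding subunit of Kv4 channels, had 6.73, 6.87, 5.46 and 6.40 CPM in WT_alpha3 and 6.12, 7.47, 9.09 and 9.19 CPM in WT_beta, which overlap. The log2 difference was -0.32 ± 0.15 (adjusted p 0.94). Kcne4, an accessory subunit, had 2.002, 2.20, 1.86 and 0.788 CPM in WT_alpha3 and 1.40, 4.44, 4.21 and 4.33 CPM in WT_beta, with a difference of -1.07 ± 0.58 (adjusted p 0.993). WT_beta 399 lay far below the other WT_beta libraries for it. Kcna3, Kcnj8 (Kir6.1) and Kcnj12 had differences of 0.44 ± 0.26, -0.27 ± 0.15 and -0.23 ± 0.15 (adjusted p 0.993, 0.993 and 1). Without KO_alpha3 42 and 81 and WT_alpha3 45 and 79, which leaves 2 WT_alpha3 libraries, 3 members passed, where 2.03% of all genes did, Kcnc4 at 1.43, Kcnd1 at 0.73 and Kcnd3 at 0.64, all voltage-gated pore genes. The WT_alpha3 libraries left had globin ratios of -6.93 and -6.71, and WT_beta had -5.17, -6.04, -6.89 and -6.63. Slopes on the ratio were -1.01 for Kcnc4, -0.37 for Kcnd1 and -0.48 for Kcnd3. The part of the ratio in these differences was not tested.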

How the data were processed

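RNA-seq counts of 16 libraries were analysed. Per the submitters' processing notes, the tools were TopHat2 2.0.10, HTSeq 0.6.1p1, bcl2fastq 2.17.1.14, DESeq2 1.6.3 and cutadapt, with mm10 as the build. The authors deposited whole-number counts per gene symbol, not normalised. How strand was handled and which annotation was counted is not given in these sources. The deposited normalised table was not used. Counts were scaled by TMM in edgeR 4.0.16 (R 4.3.3) after filterByExpr (minimum count 10, minimum total 15), and CPM use these scaled library sizes. Per-kb values use GENCODE M21 exon lengths, and filter codons were searched in its coding sequences. One quasi-likelihood fit held KO_alpha3, KO_beta and the 8 wild types, and another the 4 groups, with or without the globin ratio. Calls were made at a Benjamini-Hochberg adjusted p under 0.05 over all genes, and Hbb-bh1 and Hbb-y were not tested for the slope. SEs are the absolute log2 value over the square root of F.

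The members and lists were chosen with earlier results of these data known. Named members are the highest per kb in each subfamily, the 12 of lowest p per direction for the slope, and the 5 of lowest p where fewer than 5 passed, and some of these are not reported here. All other members named with values were chosen after their values were seen. DESeq2 1.42.0 was an alternative. On simulated data the slope fit recovered 160 of 199 genes given a slope of 0.4 (80.4%), with 3 false calls over 15552 genes. The KO_alpha3 fit recovered 168 of 200 genes given a log2 change of 1 (84%), with 13 false calls over 15562 genes. The simulated spread was that left after fitting groups and globin ratio, and no ratio effect was simulated for this fit. On the data the KO_alpha3 fit holds no ratio term, so 84% does not measure how often it would find such a change. Library totals of 19682595 to 26873361 counts limit the precision of members near 1 CPM.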

Additional observations from a re-analysis of the deposited data

Results flagged for a closer look

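In 6 of 160 pairs of a named member and a group of 4 libraries, 1 library lay far from the other 3 (its gap to the nearest, over the range of the group, was above Dixon's critical value of 0.829). Chance flags about 1 in 20 such groups. Kcng1 had 0.986 CPM in KO_beta 411, against 0.64 to 0.677 CPM in the other KO_beta libraries. Kcnd3 had 35.4 CPM in WT_beta 415, against 26.8 to 27.3 CPM in the other WT_beta libraries. Kcnd1 had 30.1 CPM in WT_beta 401, against 39.8 to 40.9 CPM. In WT_beta 399, the library with the most liver transcripts, Kcne4 had 1.4 CPM, against 4.21 to 4.44 CPM, and Kcnj8 had 5.51 CPM, against 7.69 to 7.97 CPM. Kcnip1 had 25.5 CPM in WT_alpha3 79, the library with the most progenitor transcripts, against 41.3 to 44.3 CPM in the other WT_alpha3 libraries. The part of other tissues in these values was not tested.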

How the results depend on the processing

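The 43 calls of the slope on the globin ratio became 41 to 45 when each library was left out in turn, 2 in the beta line alone, 0 without WT_alpha3 45 and 79 and KO_alpha3 42 and 81, and, in alternatives added after seeing the data, 27 with log2(Hba-x/Hbb-y) and 1 with the sensory neuron mean as a covariate. Of all genes 46.7% were called in the main fit and 1.47% with the sensory neuron mean. The share was 4.5% in the beta line alone and 5.25% without WT_alpha3 45 and 79 and KO_alpha3 42 and 81. With log2(Hba-x/Hbb-y) the share is not reported here, so the 27 cannot be set against it. The beta line and the set without these libraries hold fewer libraries over a narrower range of the ratio. The cause of the lower counts was not tested in any of these fits. The planned ratio with Hba-a1 and Hba-a2 was not run, since both are at 0 in every library. Kcnmb2 had a slope of -0.071 in the beta line alone. Against the wild types, KO_alpha3 had 2 calls with DESeq2. When each library was left out it had 0 to 1, the 1 being Kcnmb2 without KO_alpha3 50, its lowest KO_alpha3 library. For KO_beta, the wild types of the lines and the difference of the effects this range was 0 to 0, while WT_alpha3 minus WT_beta had 3 calls without WT_alpha3 45 and 79 and KO_alpha3 42 and 81, where a pair of WT_alpha3 libraries is left. With a factor for Y-linked reads the difference of the effects turned sign for Kcnmb2 (-0.63), Kcnip3 (-0.032), Kcne1l (-0.43) and Kcnc2 (1.31). Only KO_alpha3 holds libraries with and without such reads, so this factor rests on KO_alpha3 42 and 81 against 50 and 75. Those pairs differ in the globin ratio too, so sex and ratio cannot be told apart in these values. Over the named members, 146 slopes under other settings kept direction and call, 49 kept the direction only, and of those with 1 library left out 218 kept both and 6, all of Kcnmb2, the direction only. No paired analysis was possible because no replicate number is shared between groups.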
